A study of Penicillium oxalicum with 6 samples.

Results

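Among the 9834 genes measured in mycelium of Penicillium oxalicum grown on cellulose, 123 were abundant in the MuPOX05503 mutant and at least about 2-fold higher there than in the Ku70 strain. They were chosen by measured values. Each gene averaged at least 300 FPKM (fragments per kilobase of gene, scaled to the size of the library) over the 3 MuPOX05503 libraries and at least 1 FPKM over the 3 Ku70 libraries. Each also had an R of at least 1, where R is the log2 of (mean FPKM in MuPOX05503 + 1) over (mean FPKM in Ku70 + 1). Genes in runs of 4 or more consecutive identifier numbers that all had an R of at least 1 were left out. The direction of the difference and its minimum size follow from that choice, so the levels given here are a description and carry no test.

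The mutant strain, MuPOX05503, is labelled as mutated in POX05503, and the series title names a deletion of that gene. It was set against a strain labelled Ku70, and the growth protocol of all 6 libraries speaks of Ku70 mutant spores. It is not stated in the labels whether MuPOX05503 carries the Ku70 mutation as well, nor whether the 3 libraries of a strain came from separate cultures. About 1 g of mycelium was shaken for 24 h in 100 mL of medium with 1% Avicel at 28 °C and 180 rpm, and total RNA was sequenced. The libraries held 13653016 to 13843879 expected counts in MuPOX05503 and 13936580 to 14263916 in Ku70. POX05503 had a count of 0 in every MuPOX05503 library and of 470 to 539 in the Ku70 libraries (24.3 ± 1.54 FPKM, SD, n = 3). Within MuPOX05503, library 1 stood somewhat apart. The chi-square per degree of freedom over all genes was 42.5 between libraries 1 and 2 and 20.4 between libraries 1 and 3, against 9.54 between libraries 2 and 3. Library 1 was the more distant one in Ku70 too, at 26.4 from library 2 and 20.1 from library 3, against 13.3 between libraries 2 and 3.

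P. oxalicum is a filamentous fungus that secretes enzymes which break cellulose and xylan down to sugars. Avicel, a microcrystalline cellulose, serves as its carbon source here. Protein kinases pass signals on by phosphorylating other proteins, and the study asks about kinases that act on the expression of cellulase and xylanase genes. Sequencing divides a limited number of reads among all transcripts, so that a larger share for some transcripts leaves a smaller share for others. A larger share of the reads and more RNA per cell cannot be told apart in such data. Gene names do not come with these identifiers. A search of RefSeq for the species (assembly ASM172317v3) found 0 of the 9834, so no product is given for any of the 123 genes. POX01764 and POX03250, the 2 most abundant, are called by their identifiers. The other members are called by their rank in mean FPKM over the MuPOX05503 libraries, from rank 1 (POX01764) to rank 123.

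The 123 genes took a far larger part of the reads in the mutant. Their share of all expected counts was 16.2%, 16.5% and 16.5% in the MuPOX05503 libraries 1 to 3, against 4.65%, 4.14% and 4.43% in the Ku70 libraries 1 to 3. The mean was 16.4 ± 0.207% in MuPOX05503 and 4.41 ± 0.257% in Ku70 (SD, n = 3 each), a difference of 11.99 percentage points. All MuPOX05503 libraries lay well above all Ku70 libraries, and the libraries of a strain differed by less than 1 point. The choice of the genes fixes the direction of the means and favours such a gap, though it sets no limit on single libraries. Without MuPOX05503 library 1 the mean in that strain was 16.5%. Since counts grow with gene length, the share was also taken from the summed FPKM, where it was 23.6 ± 0.155% in MuPOX05503 and 7.18 ± 0.413% in Ku70.

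**Figure D1:**
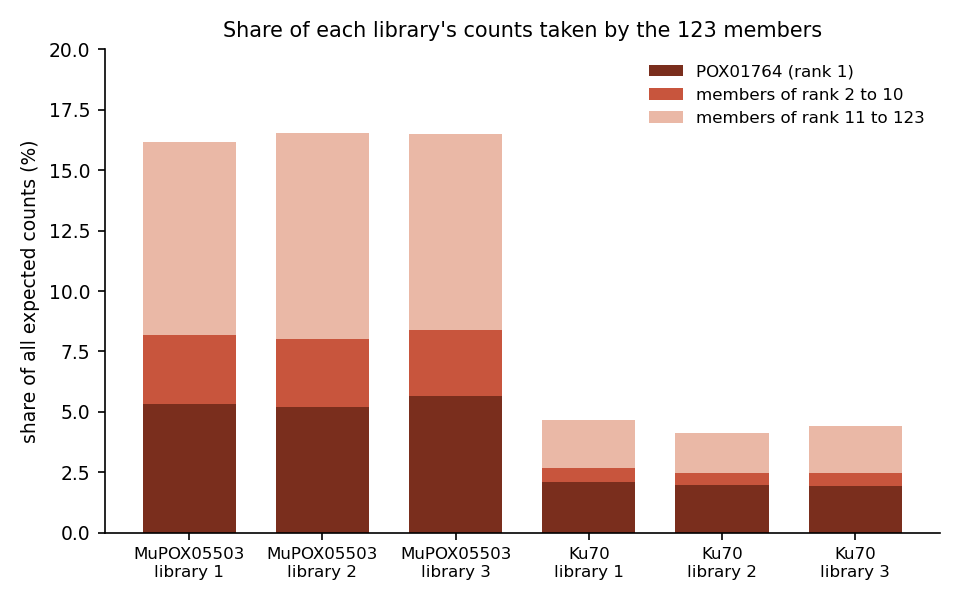
Share of all expected counts (%) taken by the 123 members in each library, with MuPOX05503 libraries on the left and Ku70 libraries on the right; the bar sections are POX01764, the members of rank 2 to 10 and the members of rank 11 to 123. The bars reach 16.2% to 16.5% in MuPOX05503 and 4.14% to 4.65% in Ku70, and each section is larger in every MuPOX05503 library than in any Ku70 library.

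POX01764 alone made up 5.40 ± 0.228% of all counts in MuPOX05503 and 2.01 ± 0.0948% in Ku70. The members of rank 2 to 10 added 2.80 ± 0.0587% in MuPOX05503 and 0.527 ± 0.0368% in Ku70. The remaining 113 members added 8.20 ± 0.261% in MuPOX05503 and 1.87 ± 0.177% in Ku70. Thus the gain did not sit in POX01764 alone: it contributed 3.39 of the 11.99 points, and the 113 members of rank 11 and beyond contributed 6.33. The 10 most abundant members together held 49.98% of the counts of the 123 genes in MuPOX05503, and the 50 most abundant held 79.0%.

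Other gene groups with fixed limits on level and difference put this gain in scale. The 363 genes with at least 300 FPKM in MuPOX05503 that differed less than 2-fold between the strains took 27.3 ± 0.680% of the counts in MuPOX05503 and 26.3 ± 0.567% in Ku70. The 159 genes with at least 300 FPKM in Ku70 that were at least 2-fold lower in MuPOX05503 took 5.70 ± 0.710% in MuPOX05503 and 23.1 ± 0.874% in Ku70. The fall of 17.4 points in the second group was larger than the gain of 11.99 points in the 123 members. Unlike the members, that group was defined without leaving out runs and without a minimum level in the other strain. The rising genes that those limits left out gained 1.23 points (11 genes in runs) and 0.036 points (2 genes low in Ku70). Leaving aside 13 abundant genes that met the limits on level and R and were left out, the other 9176 genes took 49.0 ± 0.434% of the counts in MuPOX05503 and 45.9 ± 0.0463% in Ku70. All of these groups were defined on the same FPKM means, so their differences follow in part from the definitions.

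Most of the 123 genes were expressed in Ku70 above the level of most other genes, but below its most abundant ones. Of the 100 most abundant genes in MuPOX05503, 24 were members, while only 3 members were among the 100 most abundant in Ku70. The median rank of the members among all genes was 305 in MuPOX05503 and 1186 in Ku70, out of 9834 genes, and 34 members were outside the 2000 most abundant genes of Ku70. Their median level was 570.8 FPKM in MuPOX05503 and 126.6 FPKM in Ku70. The median R was 2.12, against 0.12 over the 8801 genes tested. In R, 59 members lay between 1 and 2, 34 between 2 and 3, 13 between 3 and 4, and 17 at 4 or more.

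**Figure D2:**
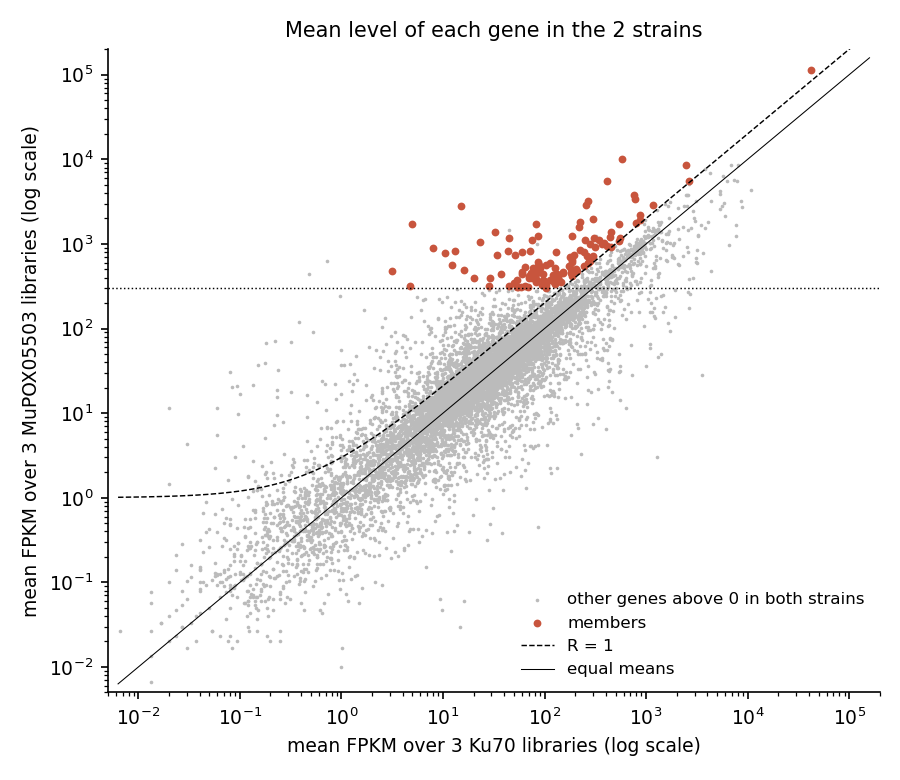
Mean FPKM over the MuPOX05503 libraries (vertical, log scale) against mean FPKM over the Ku70 libraries (horizontal, log scale) for each gene above 0 in both strains; members are red, the dotted line is 300 FPKM and the dashed line is R = 1. The members fill the region above both lines, from 3.17 FPKM to 42473 FPKM in Ku70, and red points are densest between 10 and 300 FPKM in Ku70.

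The most abundant transcript of all, POX01764, was also the top gene of Ku70. POX01764 stood at 112906, 109933 and 119362 FPKM in the MuPOX05503 libraries, against 44706, 41999 and 40715 FPKM in the Ku70 libraries. Its level was even within each strain, with a coefficient of variation of 4.23% in MuPOX05503 and 4.80% in Ku70. With TMM factors, edgeR put its log2 fold change (MuPOX05503 over Ku70) at 1.31 with an SE of 0.15. Its expected counts were not whole, as happens when reads are divided between similar sequences, and its level is uncertain to that extent. The same held for the member of rank 3. The members of rank 41 and 99 also had counts that were not whole, but close to it, such as 729.04 and 9689.99. The other 119 members had whole counts in every library.

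POX03250, the next in abundance, was of a different kind. POX03250 stood at 11913, 9463 and 8714 FPKM in the MuPOX05503 libraries, against 589, 476 and 671 FPKM in the Ku70 libraries. It held rank 2 among all genes in MuPOX05503 and rank 302 in Ku70. The fitted log2 fold change was 4.004 (SE 0.17), and the lowest MuPOX05503 library was 13.0 times the highest Ku70 library. Its length as implied by count and FPKM was 243 bases, so that in counts it took only 0.243 ± 0.0406% of MuPOX05503 libraries and 0.0140 ± 0.00237% of Ku70 libraries. Library 1 was the highest of the MuPOX05503 libraries, and the groups lay far apart.

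The members of rank 3 to 10 mixed genes that were already strong in Ku70 with genes that were not. The rank 3 member had 9104, 8100 and 8463 FPKM in the MuPOX05503 libraries, against 2611, 2572 and 2191 FPKM in the Ku70 libraries. The rank 4 member had 5743, 5227 and 5576 FPKM in the MuPOX05503 libraries, against 424, 397 and 413 FPKM in the Ku70 libraries. Both were even within each strain, and the rank 4 member had the larger contrast, with an R of 3.74 against 1.80. At an implied length of 1458 bases, the rank 4 member was the second in counts after POX01764, with a share of 0.804% in MuPOX05503 and 0.0599% in Ku70.

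The rank 5 member was the least clear of the 10 most abundant. It had 4201, 7001 and 5274 FPKM in the MuPOX05503 libraries, against 2777, 2090 and 3078 FPKM in the Ku70 libraries. Its MuPOX05503 library 1 was only 1.36 times its highest Ku70 library, and its R of 1.05 was near the limit. On the TMM scale its log2 fold change was 0.95 (SE 0.21), below a 2-fold difference.

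The rank 6 member had 3694, 4081 and 3694 FPKM in the MuPOX05503 libraries, against 840, 696 and 745 FPKM in the Ku70 libraries. Rank 8 had 3278, 3296 and 3033 FPKM in the MuPOX05503 libraries, against 329, 212 and 269 FPKM in the Ku70 libraries. Rank 9 had 3042, 2694 and 2925 FPKM in the MuPOX05503 libraries, against 270, 229 and 262 FPKM in the Ku70 libraries. The ranks 8 and 9 were alike in level, in contrast (an R of 3.56 and 3.50) and in implied length (386 and 405 bases). Ranks 7 and 10 averaged 3396 and 2856 FPKM in MuPOX05503, against 781 and 1163 FPKM in Ku70. The rank 7 member had the shortest implied length of all 123 genes, 137 bases, where the length correction weighs most on an FPKM value.

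**Figure D3:**
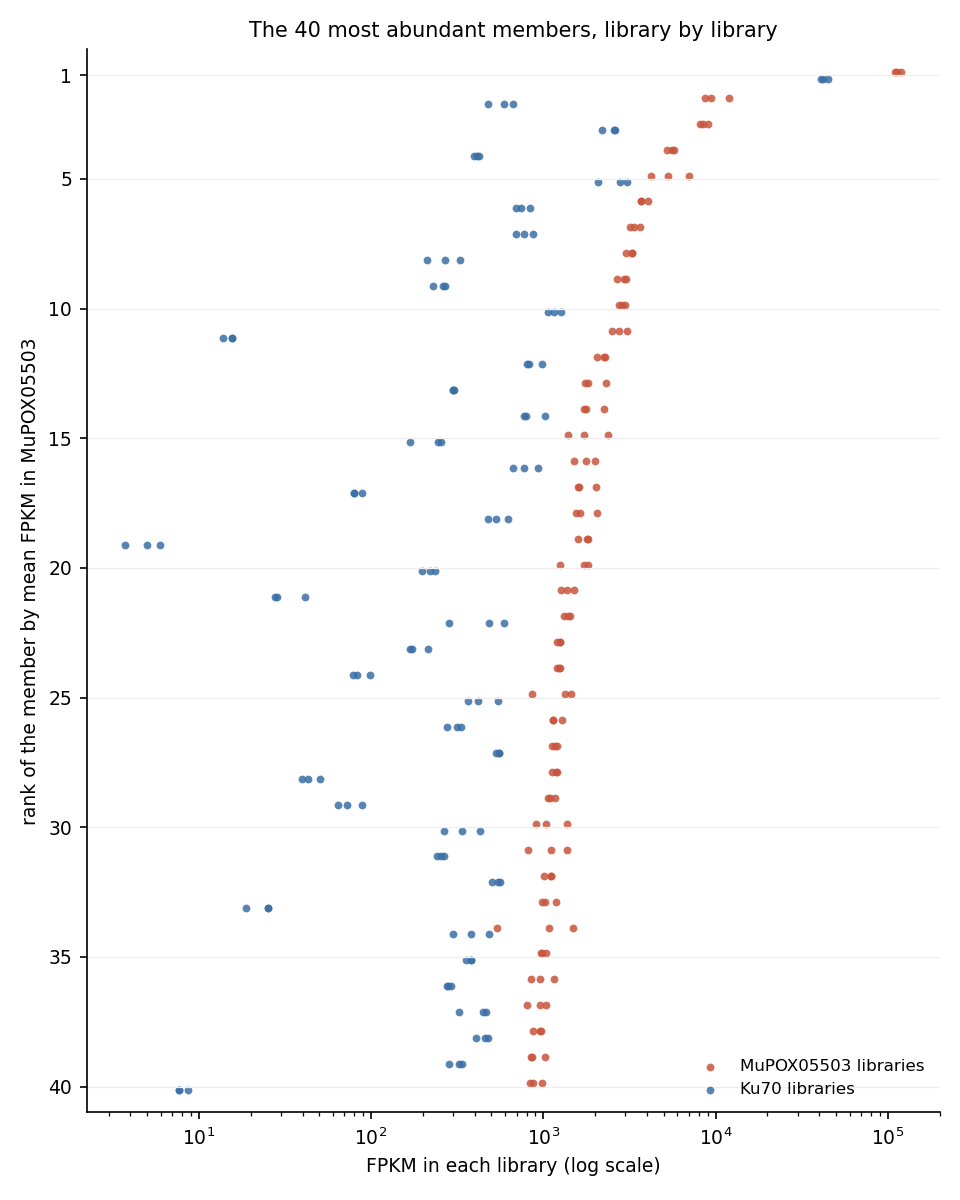
FPKM in each of the 6 libraries (horizontal, log scale) for the 40 members with the highest mean in MuPOX05503, ordered by rank down the page; red points are the 3 MuPOX05503 libraries, blue points the 3 Ku70 libraries. The means of the red points fall with rank by construction, while single libraries scatter around them. Across the 40 members the blue points spread from 3.75 FPKM (rank 19) to 44706 FPKM (rank 1).

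Members weakly expressed in Ku70 were few, and the minimum of 300 FPKM in MuPOX05503 makes their contrasts large by the choice. Only 4 members averaged less than 10 FPKM there, at ranks 19, 40, 76 and 116. The rank 19 member had 1805, 1587 and 1812 FPKM in the MuPOX05503 libraries, against 5.95, 3.75 and 5.0 FPKM in the Ku70 libraries, which gave the largest R of all members (8.20). The lowest MuPOX05503 library was 267 times the highest Ku70 library. It held rank 58 among all genes in MuPOX05503 and rank 7619 in Ku70. The rank 40 member had 840, 873 and 988 FPKM in the MuPOX05503 libraries, against 7.66, 7.64 and 8.66 FPKM in the Ku70 libraries. The rank 76 member had 587, 430 and 418 FPKM in the MuPOX05503 libraries, against 3.07, 2.92 and 3.52 FPKM in the Ku70 libraries, the lowest Ku70 level among the members. All 4 were read in every Ku70 library. Over all 123 members the smallest count in any Ku70 library was 26 and the smallest in any MuPOX05503 library was 1128, so that the levels of every member rest on reads in both strains.

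A further 48 members averaged 10 to 100 FPKM in Ku70, with a median of 459 FPKM in MuPOX05503 and 61.7 FPKM in Ku70. The rank 11 member led them, with 3080, 2494 and 2756 FPKM in the MuPOX05503 libraries, against 15.6, 15.7 and 13.8 FPKM in the Ku70 libraries. Its R of 7.44 was the second largest, and its Ku70 values differed by less than 2 FPKM. Together these 48 genes took 3.01% of the counts in MuPOX05503 and 0.338% in Ku70. The 47 members with 100 to 300 FPKM in Ku70 took about the same share in MuPOX05503, 3.09%, and 0.825% in Ku70. The 24 members with at least 300 FPKM in Ku70 took the most, 9.95% in MuPOX05503 and 3.24% in Ku70, with a median R of 1.44. Members with a lower Ku70 level had a higher R (Spearman rho = -0.74 across the 123 genes), a relation that the 300 FPKM minimum brings with it. Between R and the level in MuPOX05503 no such relation was seen (rho = 0.06). Genes are not independent replicates, and both relations share the Ku70 or MuPOX05503 values on their 2 axes.

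Long members took more counts for the same FPKM. The rank 22 member had the longest implied length of the 123, 4408 bases. It had 1317, 1437 and 1395 FPKM in the MuPOX05503 libraries, against 589, 285 and 484 FPKM in the Ku70 libraries. It was even in MuPOX05503 and uneven in Ku70, with a coefficient of variation of 4.41% and 34.1%. Its share of the counts was 0.610% in MuPOX05503 and 0.199% in Ku70. The rank 29 member, of an implied 2505 bases, had 1072, 1088 and 1173 FPKM in the MuPOX05503 libraries, against 88.3, 72.9 and 64.1 FPKM in the Ku70 libraries. Its R of 3.87 was well above the 1.61 of the rank 22 member, and its share of the counts was 0.278% in MuPOX05503 and 0.0188% in Ku70.

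In all 123 members every MuPOX05503 library was above every Ku70 library, as was the case in 41.6% of the 8801 genes tested. The members were chosen on the same contrast, so nothing is read from this count or from the next 2. With edgeR's quasi-likelihood test over all genes, all 123 were higher in MuPOX05503 at an adjusted p under 0.05, as were 31.9% of the genes tested. On the TMM scale 119 of the 123 were at least 2-fold higher, against 11.7% of the genes tested. The 4 that fell short, at ranks 5, 27, 32 and 38, had an R between 1.01 and 1.10. The TMM scale lowers every fold change by about the same amount: the median gene lay at 0.01 on the log2 scale with TMM factors and at 0.12 with library totals. The fitted log2 fold change of the members ranged from 0.90 to 8.35 with a median of 2.01, and their SE from 0.09 to 0.48.

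The distance between the strains was wide for most members and narrow for a few. The lowest MuPOX05503 library was at least 2 times the highest Ku70 library in 106 of the 123. The choice on R favours such a gap, and its share over all genes tested was not worked out. Nothing is therefore read from that count. The median ratio of the lowest MuPOX05503 library to the highest Ku70 library was 3.35. The smallest ratio, 1.04, was that of the rank 53 member. It had 388, 984 and 778 FPKM in the MuPOX05503 libraries, against 276, 247 and 372 FPKM in the Ku70 libraries. The rank 34 member followed, with a ratio of 1.11. It had 539, 1490 and 1078 FPKM in the MuPOX05503 libraries, against 485, 300 and 382 FPKM in the Ku70 libraries. In both, MuPOX05503 library 1 was the low one and lay next to the Ku70 range.

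The choice set no limit on spread within a strain, and this spread varied widely among the members. The coefficient of variation ran from 0.713% to 46.0% in MuPOX05503 and from 0.397% to 56.7% in Ku70. Its median over the members was 10.5% in MuPOX05503 and 11.3% in Ku70. For the 363 genes as abundant in MuPOX05503 that differed less than 2-fold, it was 5.32% in MuPOX05503 and 8.76% in Ku70. A coefficient above 20% was seen in 20.3% of the members in MuPOX05503 and 25.2% in Ku70, against 8.26% of those 363 genes in MuPOX05503 and 8.54% in Ku70. The 159 genes that were abundant in Ku70 and at least 2-fold lower in MuPOX05503 had a median coefficient of 15.7% in MuPOX05503 and 9.56% in Ku70. The groups were defined by level and difference in these same libraries, so spread is not independent of the definitions. The 363 genes share the members' limit on level only in MuPOX05503. In Ku70 they lay within 2-fold of that level, while the median of the members there was 126.6 FPKM. The Ku70 spreads thus compare genes of unlike level. These are descriptions over genes that share 6 libraries, and the difference between the groups was not tested.

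The uneven members can be described by the library in which they were high. In MuPOX05503, library 2 was the highest in 63 members, library 1 in 47 and library 3 in 13. In 17 members library 2 was at least 1.5 times library 1, and in 16 of these library 3 lay between them. In 7 other members library 1 was at least 1.5 times library 2, and library 3 lay between them in all 7. These 24 genes were picked by the ratio of libraries 1 and 2, which favours a place between them for library 3; it lay between them in 52 of the other 99 members. The 17 members took 1.05%, 1.87% and 1.49% of the counts of MuPOX05503 libraries 1 to 3, against 0.495%, 0.366% and 0.492% of Ku70 libraries 1 to 3. The 7 members took 0.638%, 0.367% and 0.441% in MuPOX05503, against 0.0662%, 0.0481% and 0.0616% in Ku70.

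Single members show how far this went. The rank 97 member had 201, 561 and 422 FPKM in the MuPOX05503 libraries, against 22.9, 8.90 and 28.8 FPKM in the Ku70 libraries. The rank 119 member ran the other way, with 455, 182 and 300 FPKM in the MuPOX05503 libraries, against 87.6, 38.9 and 49.2 FPKM in the Ku70 libraries. Both kept a gap between the strains despite a coefficient of variation of 45.9% and 43.8% in MuPOX05503. Of the 17 members high in MuPOX05503 library 2, 15 were lower in Ku70 library 2 than in Ku70 library 1, and so were 6 of the 7 members high in MuPOX05503 library 1. The same was true of 63 of the other 99 members, so that Ku70 library 2 was below Ku70 library 1 in 84 of the 123 in all. Across the 123 members the log2 ratio of library 2 to library 1 in MuPOX05503 had a weak negative correlation with that in Ku70 (r = -0.23), given as a description over genes of the same libraries.

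**Figure D4:**
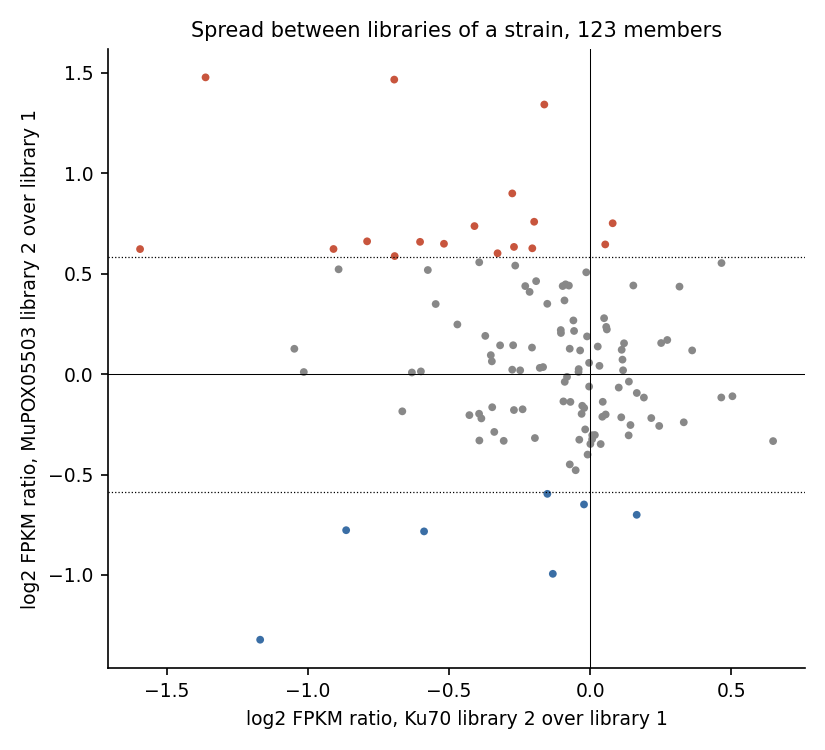
Log2 FPKM ratio of library 2 to library 1 in MuPOX05503 (vertical) and in Ku70 (horizontal) for each of the 123 members; dotted lines mark a ratio of 1.5, red points are the 17 members high in MuPOX05503 library 2 and blue points the 7 high in MuPOX05503 library 1. Most points lie within the dotted lines, and 84 of the 123 points, 21 of them coloured, lie left of zero on the horizontal axis.

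Each library was left out in turn, and the choice was repeated on the other 5. The left-out library was then set against the mean of the other strain. That mean had served in the choice, so the counts are a description and not an independent check. For scale, 11.8% of the 8801 genes tested had an R of at least 1 over all libraries. Chosen from the other 5 libraries, the members numbered 118 to 131. Of the 131 chosen without MuPOX05503 library 1, 113 (86.3%) were at least 2-fold higher in that library than in the Ku70 mean, and 130 were higher. Without MuPOX05503 library 2 it was 113 of 118 (95.8%), and without library 3 it was 119 of 125 (95.2%). With a Ku70 library left out, the MuPOX05503 mean was at least 2-fold above it in 119 of 126, 119 of 121 and 114 of 126 genes for libraries 1, 2 and 3. The lowest value was in MuPOX05503 library 1, where 1 gene had a log2 difference of -0.04. The share was thus smallest in MuPOX05503 library 1, and the direction was the same in all genes of the other 5 libraries.

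In implied length the members had a lower median than the genes tested, a higher one than the abundant genes of less than 2-fold difference, and one close to that of the abundant Ku70 genes that were lower in MuPOX05503. The median length implied by count and FPKM was 956 bases for the members, 601 bases for the 363 genes of less than 2-fold difference, 974 bases for the 159 genes abundant in Ku70 and at least 2-fold lower in MuPOX05503, and 1223 bases for the 8801 genes tested. It was 482 bases for the members of rank 1 to 41, 990 for rank 42 to 82 and 1046 for rank 83 to 123. The longest genes were few, with 8 members (6.50%) at 2000 bases or more, against 21.7% of the genes tested. FPKM is itself divided by length, so level and length are not independent here, and the difference in length was not tested. Across the 123 members R had no clear relation to length (rho = 0.11).

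**Figure D5:**
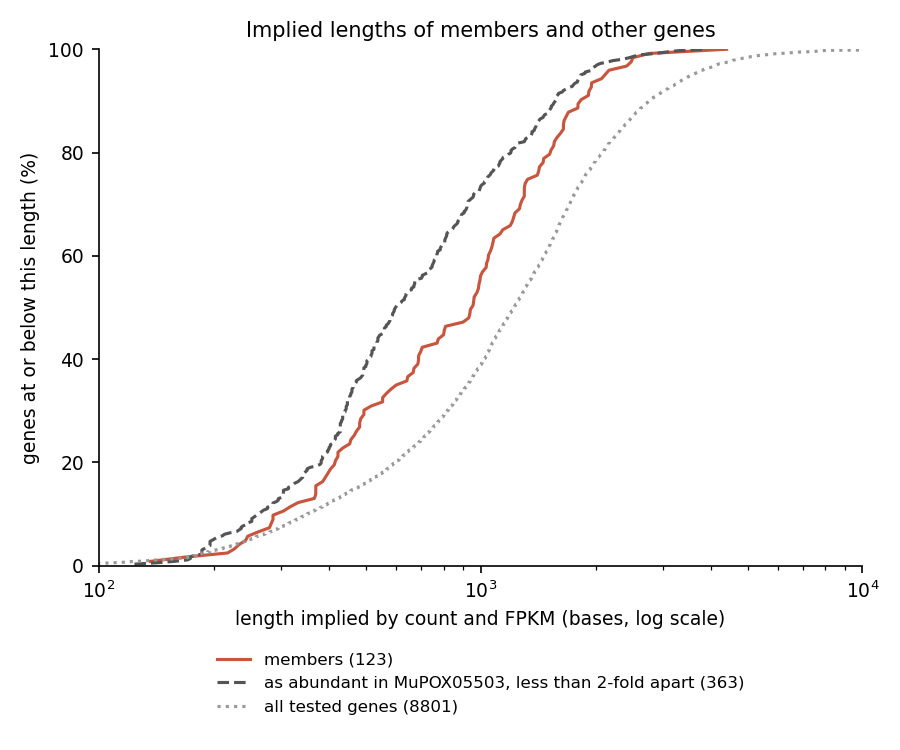
Cumulative share of genes (%) at or below a length implied by expected count and FPKM (bases, log scale) for the 123 members, the 363 genes as abundant in MuPOX05503 that differed less than 2-fold, and the 8801 genes tested. The curve of the members runs between the other curves over most of its length, with medians of 956, 601 and 1223 bases.

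By identifier number, 66 members stood alone, 40 lay in runs of 2 genes with an R of at least 1 and 17 in runs of 3; longer runs were left out by the choice. Whether numbers follow the order on the chromosomes is not given in the sources used here. Among the 231 genes tested that are numbered directly before or after a member, 26.8% had an R of at least 1 and 6.49% had an R of -1 or less. Over all genes tested the same shares were 11.8% and 11.1%. At 2 numbers away the shares were 15.2% and 6.73%. Of the 231 genes, 12 were themselves members, which have an R of at least 1 by the choice. So were 6 of the 223 genes tested at 2 numbers away. These neighbours are not independent of each other, the limit on runs acts on them, and no test was made.

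In 6 cases consecutive numbers were both members. The ranks 82 and 13 were alike, with an R of 2.59 and 2.70. The rank 13 member had 2303, 1744 and 1826 FPKM in the MuPOX05503 libraries, against 302, 300.4 and 300.1 FPKM in the Ku70 libraries. The pair of rank 95 and 117 was unlike, with an R of 1.54 and 3.43. The pair of rank 30 and 84 averaged 1104 and 445 FPKM in MuPOX05503, against 343 and 188 FPKM in Ku70. The other pairs were ranks 67 and 69, 113 and 123, and 81 and 73. Reads of overlapping genes cannot be told apart without a strand setting, which is not given in the sources used here.

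Where the limits fell can be seen from the genes next to them. The members with the lowest MuPOX05503 means had 301 and 306 FPKM, and the first genes left out for that reason had 299 and 294 FPKM. The members with the lowest R had 1.007 and 1.052, and the first left out had 0.987 and 0.987. In Ku70 the lowest members had 3.17 and 4.77 FPKM, and the 2 genes left out had 0.717 and 0.477 FPKM. The limit on R thus cut through a continuous range, while the limit on the Ku70 level fell in a gap.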

How the data were processed

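The data are 6 RNA-seq libraries, 3 of MuPOX05503 and 3 of Ku70, grouped by the strain label. Per the file headers, the deposited tables hold, for every gene, its FPKM and its expected count in that library. The tools in the submitters' processing notes are RSEM 1.2.12, Bowtie2 2.1.0, DESeq2 and BWA 0.7.10-r789, without a stated role. The build, the annotation and whether counting used strand: not given in the sources used here. Members and limits were chosen with earlier results of these data known.

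Expected counts were rounded and tested with edgeR 4.0.16 (R 4.3.3; TMM factors, quasi-likelihood test, Benjamini-Hochberg adjustment) over the 8801 genes that reached 1 FPKM in 3 or more libraries, with strain as the only term. The procedure was tested on simulated data. All 123 members passed that filter, with at least 2.92 FPKM in every Ku70 library. Counts within 0.005 of an integer were taken as whole. The implied length is the count over FPKM and library total, and it differed between libraries by a factor of at most 1.003 per member. It is the length by which the FPKM was scaled and need not equal the length of the annotated gene. The libraries of a strain may be technical repeats, and the p-values then cover only their spread.

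The rule for named genes took POX05503 and, since no table pairs identifiers with names, the 2 most abundant members by identifier and the others by rank. No pair of libraries was identical. Alternatives were limma 3.58.1 on log2(FPKM + 1) or log2(FPKM + 0.1), DESeq2 1.42.0, other scalings, no filter, a replicate block, each library left out and other limits of the choice.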

Additional observations from a re-analysis of the deposited data

How the results depend on the processing

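Of 99 values recomputed under alternatives, 89 moved less than the spread or count limit set for them. The limit on counts was wide, so that 165 members in place of 123 still passed as unmoved. The choice nearly fixes the counts of members at an adjusted p under 0.05 (14 of 14 unmoved) and at 2-fold (13 of 13). The tally is thus no measure of stability. A turn in direction was recorded only for the fold changes of POX01764 and POX03250, and neither turned. For the members as a set the direction follows from the choice. The number of members fell to 73 with at least 500 FPKM in MuPOX05503 and lay at 103 to 165 under the other limits and scalings, with 118 to 131 when a library was left out. Without POX01764 the share of counts was 11.0% in MuPOX05503 and 2.40% in Ku70; with whole counts alone it was 10.5% in MuPOX05503 and 2.26% in Ku70; of the summed FPKM it was 23.6% in MuPOX05503 and 7.18% in Ku70. Leaving out a library gave 16.3% to 16.5% in MuPOX05503 and 4.28% to 4.54% in Ku70. All 123 members were higher at an adjusted p under 0.05 with edgeR, DESeq2 and limma under every setting. They were chosen on this contrast, so nothing is read from the count. Over all genes, those called higher ran from 2418 of 8679 tested (without MuPOX05503 replicate 3) to 3341 of 8801 (library totals). At least 2-fold higher were 112 to 123 of the members, 112 being without MuPOX05503 replicate 2 or without Ku70 replicate 2. In the main edgeR fit 11.7% of all genes tested were at least 2-fold higher. That share was not worked out for the other settings, and nothing is read from the range of the members. The median log2 fold change, 2.01, was 2.12 when scaled to library totals, 2.09 by limma with 1 added to the FPKM and 2.11 by limma with 0.1 added, and 1.97 to 2.03 with a library left out.

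The title letters give both strains the same replicate numbers. Same-letter libraries had correlations of 0.006, -0.023 and -0.001 in their deviations from the strain means, so the letters were not taken to pair the libraries. With the replicate block on the letters, edgeR put 123 members higher at an adjusted p under 0.05, as were 2729 of the 8801 genes tested. In that fit 119 members were at least 2-fold higher, a count that the choice on the same contrast nearly fixes. Their median log2 fold change was 1.996, against 0.012 over all genes tested. Over all genes tested, 49.4% of the called genes were higher with TMM factors and 57.8% with library totals. The members had at least 26 counts in each library, and whether depth limited their values was not tested.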

Other observations

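Of the 551 genes with at least 300 FPKM in MuPOX05503, 136 (24.7%) had an R of at least 1. Besides the 123 members, 11 of them lay in runs of 4 to 7 consecutive numbers with an R of at least 1, and 2 averaged less than 1 FPKM in Ku70. The 11 genes in runs took 1.505 ± 0.0922% of the counts in MuPOX05503 and 0.277 ± 0.0377% in Ku70 (SD, n = 3 each). The most abundant of them had 1559, 1378 and 1413 FPKM in the MuPOX05503 libraries, against 46.5, 41.0 and 45.5 FPKM in the Ku70 libraries, with an R of 5.001 that was larger than that of all but 10 members. The others had an R of 1.70 to 3.55.

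The 2 genes left out for their low Ku70 level were nearly without reads there. One had counts of 3101, 3320 and 2935 in the MuPOX05503 libraries, against 3, 2 and 6 in the Ku70 libraries. The other had counts of 1750, 1824 and 1864 in the MuPOX05503 libraries, against 3, 2 and 1 in the Ku70 libraries. At these Ku70 counts a fold change is set by a handful of reads, and none is given. Their mean levels in MuPOX05503, 623 and 446 FPKM, lay within the range of the members.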
